A study of Mus musculus with 16 samples.

Results

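The genes described here are the mouse p53 gene Trp53, its paralogs Trp63 and Trp73, the p53 inhibitors Mdm2, Mdm4 and Ppm1d, and Wrap53, the gene that lies head to head with Trp53. They were chosen by symbol, as 7 of the 41214 genes counted by RNA sequencing in T cell acute lymphoblastic leukaemia (T-ALL) from 16 mice of the C57Bl6 strain, with 1 library per mouse and 8 groups of 2 mice. The p53-ko groups with ICN, the intracellular part of Notch that drives leukaemia, carried Miz1 deltaPOZ with a Lck suffix in the title, Miz1 deltaPOZ with a Vav suffix, or Miz1 wt, which gave 6 libraries. The p53-wt groups with ICN had the same 3 Miz1 states and gave 6 libraries. Of the p53-ko groups without ICN, the first carried Miz1 deltaPOZ with the Vav suffix and the second Miz1 wt, which gave 4 libraries. No p53-wt mouse without ICN and no healthy tissue was analysed here. Miz1 is a zinc finger transcription factor, and deltaPOZ is a form of it without the POZ domain. The labels do not explain the Lck and Vav suffixes, and do not give the p53 allele, the organ, the age or the sex of the mice.

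The p53 protein is a transcription factor that DNA damage and oncogene signals stabilise, and it turns on genes of cell cycle arrest, repair and cell death. Mdm2 is a ubiquitin ligase that marks p53 for degradation, and Mdm4, its relative, binds the p53 activation domain. Ppm1d encodes the phosphatase Wip1, which removes activating phosphates from p53 and from the damage kinases. Mdm2 and Ppm1d are themselves known p53 targets, which makes the circuit a negative feedback loop, and loss of p53 is a classic route to thymic lymphoma in mice. Wrap53 encodes a protein of Cajal bodies that brings telomerase RNA to telomeres.

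Trp53 (ENSMUSG00000059552) spans 69580359 to 69591873 on the plus strand of chromosome 11 on GRCm38, and Wrap53 (ENSMUSG00000041346) spans 69561758 to 69580255 on the minus strand. In the GENCODE annotation 103 bases separated the 2 genes and their exons shared 0 bases. The promoter window of Trp53 is shown because it holds this shared start region. It covers chr11:69580109-69580408 on the plus strand, from RefSeq on GRCm38.p6, and the capitals mark the 103 bases between the annotated genes.
Trp53 and Wrap53 shared start: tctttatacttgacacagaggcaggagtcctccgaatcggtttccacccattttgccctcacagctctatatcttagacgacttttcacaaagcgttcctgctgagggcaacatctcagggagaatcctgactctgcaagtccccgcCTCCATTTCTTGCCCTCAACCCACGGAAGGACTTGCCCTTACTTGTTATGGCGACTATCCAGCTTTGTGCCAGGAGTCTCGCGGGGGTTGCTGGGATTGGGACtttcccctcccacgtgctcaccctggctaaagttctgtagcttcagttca
Mdm2 (ENSMUSG00000020184) lies on the minus strand of chromosome 10 at 117688875 to 117710758, and Ppm1d (ENSMUSG00000020525) on the plus strand of chromosome 11 at 85311244 to 85347066. Their RefSeq promoter windows, chr10:117710709-117711008 on the minus strand and chr11:85311004-85311303 on the plus strand, are shown because both genes are known p53 targets. Capitals mark the match to the p53 half-site consensus.
Mdm2 promoter: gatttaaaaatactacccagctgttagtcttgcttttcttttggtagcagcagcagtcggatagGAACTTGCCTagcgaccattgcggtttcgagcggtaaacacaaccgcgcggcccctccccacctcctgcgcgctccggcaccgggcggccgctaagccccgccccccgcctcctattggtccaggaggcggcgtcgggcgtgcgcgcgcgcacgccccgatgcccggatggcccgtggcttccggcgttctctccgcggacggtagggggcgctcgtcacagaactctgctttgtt
Ppm1d promoter: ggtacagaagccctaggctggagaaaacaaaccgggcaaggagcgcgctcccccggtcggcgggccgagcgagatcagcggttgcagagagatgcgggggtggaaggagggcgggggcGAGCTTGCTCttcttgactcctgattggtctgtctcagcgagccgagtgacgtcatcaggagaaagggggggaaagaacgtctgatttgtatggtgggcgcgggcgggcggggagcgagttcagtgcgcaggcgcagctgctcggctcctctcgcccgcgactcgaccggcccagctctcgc
This consensus of 10 letters is its own reverse complement, so a match holds on both strands. RefSeq gave 9 windows of 300 bases for 6 of the members and none for Trp63. The consensus matched 4 of the 9, namely those of Mdm2, Ppm1d and Trp53 and 1 of the 2 of Wrap53, where the Trp53 and Wrap53 windows share the matched bases. It matched 2745 of all 32851 windows (8.36%). A match is only a stretch of letters, and the well-known p53 sites of Mdm2 lie at its internal promoter, outside this window. The other members are Mdm4 (ENSMUSG00000054387, chromosome 1, 132959484 to 133030561), Trp63 (ENSMUSG00000022510, chromosome 16, 25683763 to 25892102) and Trp73 (ENSMUSG00000029026, chromosome 4, 154056253 to 154140208). Trp73 shares 280 exon bases with Trp73os on the opposite strand, and since the strand setting of the counting is not given in the sources used here, reads from both cannot be told apart.

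The libraries held 36463524 to 68523196 gene counts. All 12 T cell markers lay at 1 CPM or more in every library, with a summed level of 2760 to 6180 CPM. Here CPM is the count scaled to library size with TMM factors. The libraries also held RNA of other cells. Summed neutrophil markers lay at 52.6 to 9120 CPM in ICN p53-ko, 54.8 to 911 CPM in ICN p53-wt and 0.726 to 1.56 CPM in p53-ko libraries without ICN. Summed macrophage markers lay at 230 to 1540 CPM in ICN p53-ko, 138 to 279 CPM in ICN p53-wt and 122 to 338 CPM in p53-ko libraries without ICN, and the ICN p53-ko Lck libraries, at 1540 and 1110 CPM, were the highest. Summed erythroid markers lay at 6420 to 26300 CPM in ICN p53-ko, 4920 to 23100 CPM in ICN p53-wt and only 2.1 to 37.6 CPM in p53-ko libraries without ICN. Summed proliferation markers lay at 6730 to 8240 CPM in ICN p53-ko, 6020 to 7360 CPM in ICN p53-wt and 4960 to 6550 CPM in p53-ko libraries without ICN. Of the thymic epithelial markers, Krt5, Krt14, Krt8, Foxn1, Psmb11, Aire and Cldn3 stayed under 1 CPM in every library, while the highest library held 1210 CPM of Dsp, 67.2 CPM of Epcam, 27.5 CPM of Cldn4 and 1.44 CPM of Krt18. The sum of all 11 epithelial markers lay at 219 to 1200 CPM in ICN p53-ko, 598 to 1210 CPM in ICN p53-wt and 12.5 to 103 CPM in p53-ko libraries without ICN. With ICN this sum was mostly Dsp, which alone lay at 214.6 to 1197 CPM with p53 ko and 594.7 to 1206 CPM with p53 wt. Summed B cell markers lay at 5.16 to 139 CPM in ICN p53-ko, 20.2 to 128 CPM in ICN p53-wt and 7.91 to 23.4 CPM in p53-ko libraries without ICN. Endothelial and stromal markers summed to 69.9 to 178 CPM in ICN p53-ko and 107 to 170 CPM in ICN p53-wt libraries. They were higher, at 179 to 310 CPM, in p53-ko libraries without ICN. In such bulk samples, fewer cells of a type and less RNA per cell cannot be told apart. The part of these cells in the results below was not tested except where a value is given.

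Trp53, the gene targeted in the ko mice, followed the p53 label of every library. With ICN and p53 ko it lay at 30.59 and 23.44 CPM in Lck, 17.77 and 19.31 CPM in Vav and 14.04 and 29.55 CPM in Miz1-wt libraries. With ICN and p53 wt it lay at 93.35 and 104.9 CPM in Lck, 113.5 and 92.19 CPM in Vav and 70.23 and 86.7 CPM in Miz1-wt libraries. The p53-ko libraries without ICN had 7.325 and 17.08 CPM in Vav and 16.92 and 21.77 CPM in Miz1-wt mice. Every p53-ko library therefore lay below every p53-wt library, and none was at 0. The means were 22.5 ± 6.64 CPM in ICN p53-ko and 93.5 ± 15 CPM in ICN p53-wt libraries (SD, n = 6 each), and in the edgeR fit the p53-ko level was 23.9% of the p53-wt level. These reads are counted over the whole gene and do not show which exons they cover.

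**Figure D1:**
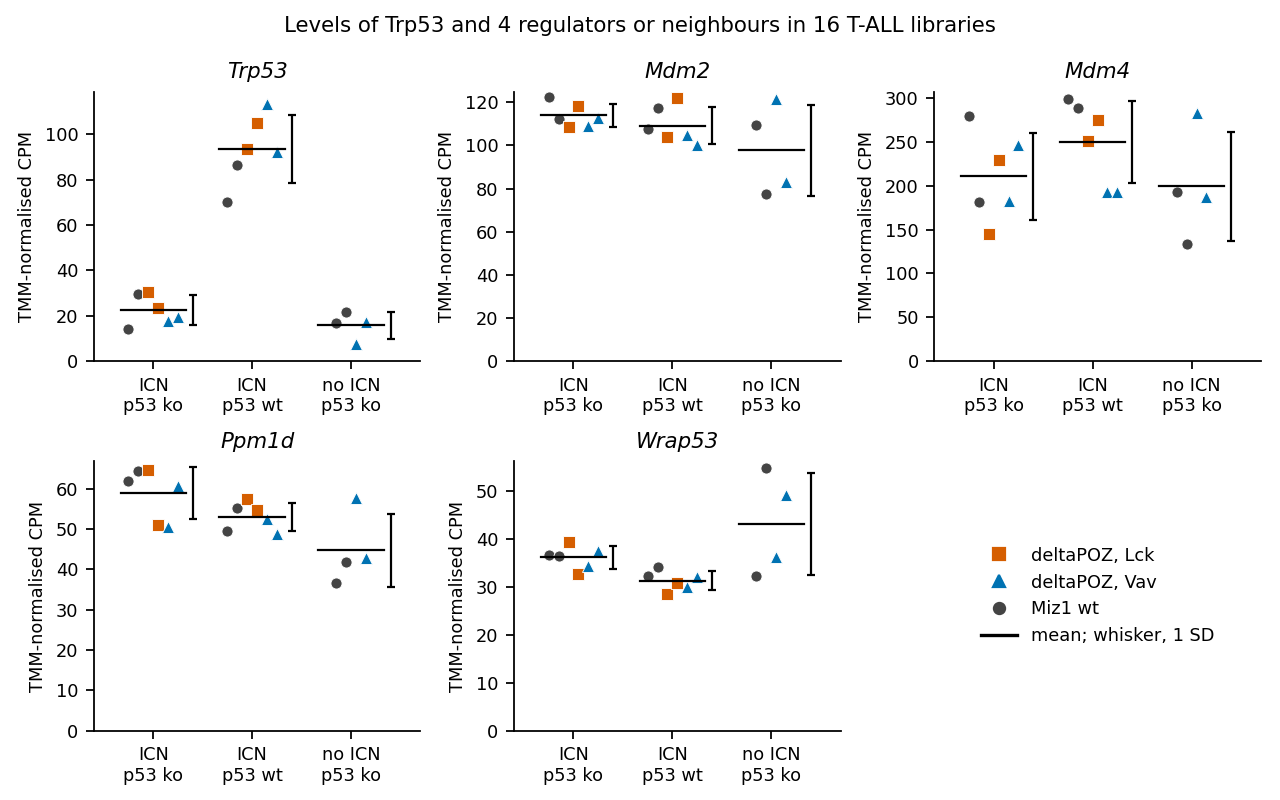
Levels of Trp53, Mdm2, Mdm4, Ppm1d and Wrap53 (y axes, TMM-normalised CPM from 0) in 16 libraries, by ICN and p53 status (x axes); each point is 1 mouse, its shape and colour give the Miz1 group, lines are means and whiskers 1 SD. The 10 p53-ko libraries hold 7.325 to 30.59 CPM of Trp53 and the 6 p53-wt libraries 70.23 to 113.5 CPM, and the other 4 genes overlap between all 3 status groups.

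Between p53 ko and p53 wt, 6 against 6 libraries with ICN averaged over the 3 Miz1 states, Trp53 fell 4.18-fold (log2 -2.06, SE 0.24, 95% interval -2.59 to -1.54; edgeR quasi-likelihood test, adjusted p = 0.009 over 17470 genes). It was 1 of 34 genes called (0.195% of those tested) and ranked 5 by p. The 1 call among 5 tested members is the targeted gene itself, and 455 genes (2.6%) had no overlap between the libraries of both sides. The size of the change was stable when any 1 library was left out (log2 -2.30 to -1.92), but the call was lost without ICN p53-wt Lck replicate 1 (-2.09, adjusted p = 0.0578) and without ICN p53-ko Lck replicate 2 (-2.01, adjusted p = 0.0504). It was also lost with both Lck groups left out (-2.16, adjusted p = 0.204), an alternative chosen after seeing the data, under which 2 genes were called in all. With DESeq2 1083 genes (6.73%) were called, Trp53 among them.

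The fall of Trp53 was seen within each Miz1 state, on 2 against 2 libraries. It was log2 -1.88 (SE 0.41) in Lck, -2.47 (SE 0.42) in Vav and -1.85 (SE 0.41) in Miz1-wt leukaemias. By edgeR 0 members passed within a state, with adjusted p-values for Trp53 of 0.185, 0.185 and 0.713, and 1 member, Trp53, had an unadjusted p under 0.05 in each. Of all genes, 10.7%, 3.06% and 5.52% had such an unadjusted p in Lck, Vav and Miz1 wt. The genes called in all were 1 (0.00572%), 3 (0.0172%) and 1 (0.00572%) for Lck, Vav and Miz1 wt. DESeq2 called Trp53 in each state, with adjusted p-values of 0.00209, 3.2e-05 and 0.00957, among 600 (3.48%), 66 (0.382%) and 138 (0.8%) genes. The p53 effect in deltaPOZ minus that in Miz1-wt leukaemias was -0.33 for Trp53 (SE 0.49, 95% interval -1.40 to 0.75, adjusted p = 1). For this difference edgeR called 0 genes (0%), with 454 genes but 0 members at an unadjusted p under 0.05. DESeq2 called 30 genes (0.168%) and no member.

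Mdm2, the ubiquitin ligase, kept a narrow range. It lay at 108.6 to 122.6 CPM (median 112) in ICN p53-ko libraries and at 100.3 to 122 CPM (median 106) in ICN p53-wt libraries. The groups overlapped, and the p53 effect was log2 0.06 (SE 0.13, 95% interval -0.22 to 0.34, edgeR adjusted p = 0.861). Mdm4 spread more, at 144.9 to 280 CPM (median 206) with p53 ko and 192.6 to 298.9 CPM (median 263) with p53 wt. Among the ICN libraries its lowest was ICN p53-ko Lck replicate 1, which had the highest macrophage (1540 CPM), neutrophil (9120 CPM) and erythroid (26300 CPM) sums. Lck replicate 2, with a macrophage sum of 1110 CPM, held 229.1 CPM of Mdm4. The p53-ko Miz1-wt replicate 2 without ICN held still less Mdm4, at 133.2 CPM. Its macrophage, neutrophil and erythroid sums were 235, 0.847 and 2.67 CPM. The part of these cells was not tested. The p53 effect on Mdm4 was -0.23 (SE 0.18, 95% interval -0.62 to 0.16, edgeR adjusted p = 0.570).

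Ppm1d, the Wip1 phosphatase, lay at 50.51 to 64.61 CPM (median 61.3) with p53 ko and 48.71 to 57.38 CPM (median 53.6) with p53 wt. Of the 6 p53-ko libraries, 4 lay above every p53-wt library and 2 lay among them. The effect was log2 0.15 (SE 0.12, 95% interval -0.11 to 0.41, edgeR adjusted p = 0.589). Wrap53, which starts beside Trp53, lay at 32.77 to 39.35 CPM (median 36.5) with p53 ko and 28.42 to 34.09 CPM (median 31.4) with p53 wt. All ICN p53-ko libraries but Lck replicate 2 lay above every p53-wt library. Its effect was 0.21 (SE 0.15, 95% interval -0.12 to 0.54, edgeR adjusted p = 0.529), so no fall of the gene adjoining Trp53 was detected. None of these 4 effects passed with DESeq2 or without a filter on low counts.

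**Figure D2:**
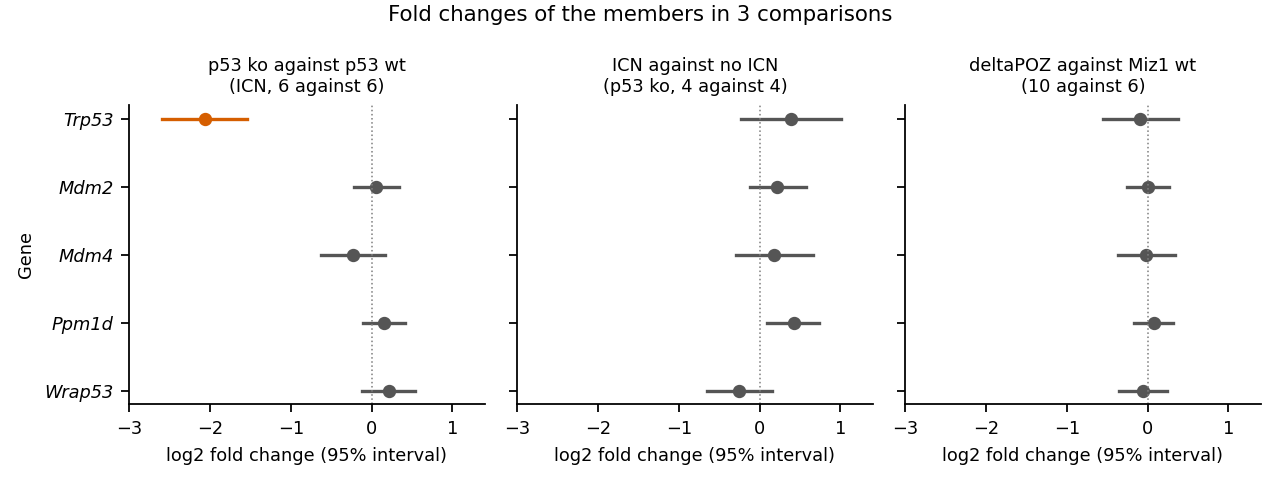
Log2 fold changes of 5 members (y axis) with 95% intervals (x axes) for p53 ko against p53 wt, ICN against no ICN, and deltaPOZ against Miz1 wt; points are edgeR estimates and orange marks an adjusted p under 0.05. Trp53 at -2.06 in the p53 comparison is the only one in orange, and the interval of Ppm1d in the ICN comparison, 0.09 to 0.74, does not cross 0.

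Per kilobase of merged exons, the order of the members differed between p53 states. With ICN and p53 ko, Mdm2 was highest at 22.4 ± 1.08 CPM per kilobase, followed by Ppm1d at 18.5 ± 2.04, Wrap53 at 17.5 ± 1.14, Mdm4 at 14.2 ± 3.37 and Trp53 at 5.55 ± 1.64 (SD, n = 6). Ppm1d, Wrap53 and Mdm4 overlapped there, Mdm2 stood above them in every library and Trp53 below. With ICN and p53 wt, Trp53 at 23.1 ± 3.7 and Mdm2 at 21.5 ± 1.67 CPM per kilobase had the highest means and overlapped, followed by Mdm4 at 16.9 ± 3.17, Ppm1d at 16.7 ± 1.08 and Wrap53 at 15.2 ± 0.952 (SD, n = 6), and these last 3 overlapped too. The ranges also met across the means: Trp53 reached down to 17.4 and Mdm2 to 19.7, where Mdm4 reached up to 20.2 and Ppm1d to 18.1 CPM per kilobase. In p53-ko libraries without ICN the order was Wrap53 at 20.9 ± 5.15, Mdm2 at 19.2 ± 4.15, Ppm1d at 14.1 ± 2.85, Mdm4 at 13.5 ± 4.2 and Trp53 at 3.9 ± 1.5 CPM per kilobase (SD, n = 4), where only Trp53 stood clear of its neighbour. The exons of all annotated transcripts are merged here, 14798 bases for Mdm4 and 2062 for Wrap53, so a gene with long, rarely used exons reads low on this scale.

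The ratio of each regulator to Trp53 restates these levels within a library, free of depth. Mdm2 to Trp53 per length lay at 2.82 to 6.95 (median 4.31) in ICN p53-ko and at 0.734 to 1.22 (median 0.905) in ICN p53-wt libraries. Ppm1d to Trp53 lay at 2.69 to 5.62 (median 3.17) with p53 ko and 0.59 to 0.897 (median 0.727) with p53 wt. Wrap53 to Trp53 lay at 2.41 to 5.12 (median 3.22) with p53 ko and 0.519 to 0.9 (median 0.637) with p53 wt. None of the 3 overlapped between p53 states, and their differences in mean log2 ratio were 2.16, 2.24 and 2.31. Each reached p = 0.00926 in an exact permutation test within Miz1 states (two-sided, the smallest p its arrangements can give; 0.0247 adjusted over 8 ratio tests). The log2 differences are about the size of the change of Trp53, which is in the denominator of all 3. Mdm2 to Mdm4, which leaves Trp53 out, lay at 1.27 to 2.18 (median 1.62) with p53 ko and 1.05 to 1.58 (median 1.25) with p53 wt. These overlapped, and the log2 difference of 0.32 did not pass (exact permutation p = 0.0648, adjusted p = 0.13).

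The paralogs Trp73 and Trp63, which encode p73 and p63 and bind the same kind of DNA site as p53, were at the edge of detection and did not pass the filter on low counts. Trp73 had 8 and 8 counts in Lck, 5 and 7 in Vav and 8 and 9 in Miz1-wt ICN p53-ko libraries. In ICN p53-wt libraries it had 2 and 3 counts in Lck, 2 and 5 in Vav and 9 and 0 in Miz1-wt mice. Without ICN it had 1 count in 4 p53-ko libraries, in Miz1-wt replicate 1. It was therefore detected in all 6 ICN p53-ko libraries, and the p53-wt group overlapped their counts through 2 libraries with 5 and 9, of which only the library with 9 overlapped on the CPM scale.

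Over a group, Trp73 lay at 0.159 CPM (95% exact Poisson interval 0.116 to 0.213) in ICN p53-ko, 0.0673 CPM (0.0416 to 0.103) in ICN p53-wt and 0.00474 CPM (0.00012 to 0.0264) in p53-ko libraries without ICN, where the floor of 3 counts is 0.0142 CPM. The p53-ko to p53-wt ratio of summed counts was 2.36 (1.38 to 4.18, counting error only). On CPM per library the difference had p = 0.00926 in the exact permutation test within Miz1 states (two-sided, again the smallest possible; means 0.164 ± 0.0441 and 0.0676 ± 0.06 CPM, SD, n = 6 each). This permutation p was not adjusted. Fitted with all genes and no filter the difference was log2 1.23 and did not pass (edgeR unadjusted p = 0.116, adjusted p = 0.647). DESeq2 gave log2 1.28 with an unadjusted p of 0.174 and no adjusted p. Summed over 6 libraries with ICN and 4 without, all p53 ko, the ratio was 33.5 (5.72 to 1350, counting error only). In the 4 against 4 contrast the gene passed without the filter (edgeR log2 4.82, adjusted p = 0.00277, where 5168 genes or 17.2% were called) and with DESeq2 (log2 4.67, adjusted p = 0.00743, where 5321 genes or 28.9% were called). The exact permutation p was 0.0556, the smallest that 36 arrangements allow. All 6 ICN p53-ko libraries lay above all 4 without ICN. Of the genes tested, 3210 (18.4%) had no overlap between these groups, in either direction.

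Trp63 had 8 counts in 2 of 6 ICN p53-ko libraries (2 in Lck replicate 1 and 6 in Miz1-wt replicate 1), 12 in 2 of 6 ICN p53-wt libraries (2 in Lck replicate 1 and 10 in Vav replicate 2) and 3 in 1 of 4 p53-ko libraries without ICN. The p53-ko to p53-wt ratio was 0.735 (95% interval 0.261 to 1.96, counting error only) and the exact permutation p was 1. The libraries with 10 and 6 counts had the most genes detected (25387 and 23972, median 20675 over all libraries). They also had the lowest shares counted in genes (26.38% and 20.57%), and the part of this in the Trp63 counts was not tested. A difference in Trp63 was not detectable at this depth.

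**Figure D3:**
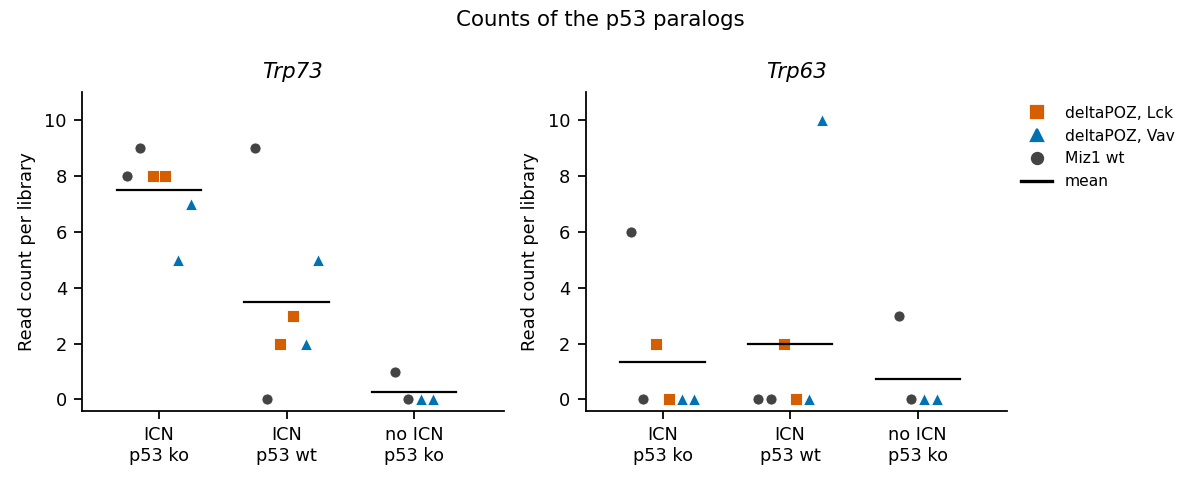
Read counts per library of Trp73 and Trp63 (y axes) by ICN and p53 status (x axes); each point is 1 mouse, its shape and colour give the Miz1 group and lines are means. Trp73 has 5 to 9 counts in the 6 ICN p53-ko libraries, 0 to 9 in the 6 ICN p53-wt libraries and 0 or 1 in the 4 libraries without ICN, and Trp63 is at 0 in 11 of 16 libraries.

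Among p53-ko leukaemias, those with ICN were set against those without it, 4 against 4 libraries of the Vav and Miz1-wt groups. Ppm1d lay at 50.51 and 60.76 CPM in Vav and 61.87 and 64.31 CPM in Miz1-wt ICN libraries, against 57.73 and 42.69 CPM in Vav and 36.73 and 41.86 CPM in Miz1-wt libraries without ICN. All but 1 library without ICN, Vav replicate 1, lay below every ICN library. The difference was log2 0.42 (SE 0.15, 95% interval 0.09 to 0.74) and narrowly missed the threshold (edgeR adjusted p = 0.062). It passed with DESeq2 (0.41, adjusted p = 0.0291), in an additive model (0.41, adjusted p = 0.0492) and with the ICN Lck group added (0.40, adjusted p = 0.0433). Under every other change of scaling, filter or fit it did not pass (edgeR adjusted p up to 0.287), a fit of the 10 p53-ko libraries alone included. Over left-out libraries the difference ran from 0.32 to 0.50, with 0.50 without that 1 library. In this comparison DESeq2 called 5321 genes (28.9%), and the additive model called 2656 of 16802 genes higher and 2274 lower. With the ICN Lck group added edgeR called 2719 of 17470 genes higher and 2599 lower. Trp53 itself differed by 0.39 (SE 0.28, adjusted p = 0.350), within the low range of all p53-ko libraries.

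Mdm2 lay at 109.1 and 112.6 CPM in Vav and 122.6 and 112.2 CPM in Miz1-wt ICN libraries, against 121.4 and 82.89 CPM in Vav and 109.5 and 77.41 CPM in Miz1-wt libraries without ICN (log2 0.22, SE 0.16, edgeR adjusted p = 0.329). Wrap53 lay at 34.26 and 37.52 CPM in Vav and 36.68 and 36.36 CPM in Miz1-wt ICN libraries, against 36.12 and 49.13 CPM in Vav and 32.35 and 54.85 CPM in Miz1-wt libraries without ICN. The libraries without ICN thus spread widely on both sides of the ICN ones (log2 -0.25, SE 0.18, adjusted p = 0.346). Mdm4 gave 0.18 (SE 0.22, adjusted p = 0.580). By edgeR 0 of 5 tested members passed, in a comparison that called 4194 genes (24%). An unadjusted p under 0.05 was seen for 1 of the 5, Ppm1d, and for 37.4% of all genes. DESeq2 called Ppm1d and Trp73. None of the ratios passed, with a smallest possible p of 0.0556.

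Between deltaPOZ and Miz1 wt no member passed. Over 10 deltaPOZ against 6 Miz1-wt libraries the log2 differences were -0.09 for Trp53 (SE 0.21), 0.00 for Mdm2 (SE 0.12), -0.02 for Mdm4 (SE 0.16), 0.08 for Ppm1d (SE 0.11) and -0.06 for Wrap53 (SE 0.14). The 95% intervals ran from -0.55 to 0.37 for Trp53 and from -0.26 to 0.26 for Mdm2. By edgeR 0 members passed (adjusted p = 1 for each) and 0 had an unadjusted p under 0.05, against 3 genes called (0.0172%). Of all genes, 4.92% had an unadjusted p under 0.05 by edgeR. DESeq2 called no member among 134 genes (0.833%).

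The wider p53 pathway was read from 30 regulators (kinases, ligases, acetylation and ribosomal stress factors) and 32 known p53 targets, all of which passed the filter. Of the regulators, 1 rose with p53 ko by edgeR (0.12% of all genes rose) and 0 fell (0.0744% fell). An unadjusted p under 0.05 was seen for 6 of them and for 15.5% of all genes. With DESeq2 1 rose, Cdkn2a, and 1 fell, Csnk1a1, where 6.73% of all genes were called in either direction. Csnk1a1, a casein kinase, named here after its values were seen, lay at 362.1 to 536.7 CPM (median 409) with p53 ko and 562.1 to 626.8 CPM (median 591) with p53 wt, with no overlap (log2 -0.49, SE 0.11, edgeR adjusted p = 0.0946). The list's median log2 change was -0.04, against 0 for all genes. Cdkn2a, the regulator that rose, is the gene whose ARF product binds and blocks Mdm2 and whose other product, p16, inhibits cyclin-dependent kinases. It lay at 22.58 to 78.79 CPM (median 48.8) in ICN p53-ko and 0.355 to 1.528 CPM (median 0.846) in ICN p53-wt libraries, with no overlap, and at 38.88 to 148.4 CPM (median 92.6) in p53-ko libraries without ICN. The change was log2 5.81 (SE 0.44, edgeR adjusted p = 0.000302), and it passed with each library left out (adjusted p up to 0.00932) and with both Lck groups left out. Gene counts do not separate the 2 products.

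Of the 32 p53 targets, 0 passed in the p53 comparison by edgeR and 9 had an unadjusted p under 0.05 (15.5% of all genes did), with a list median of -0.11. Without a filter on low counts edgeR called 4 targets higher and 3 lower, where 5.28% of all genes were called, and on only the 12 ICN libraries it called Zmat3 (0.887% of all genes). DESeq2 called 3 higher and 2 lower, where it called 6.73% of all genes, and these 5, which edgeR without a filter also called and which are named here after their values were seen, did not share a direction. Zmat3, an RNA-binding tumour suppressor, lay at 3.857 to 12.42 CPM (median 6.13) with p53 ko and 15.07 to 33.91 CPM (median 22) with p53 wt. Those libraries did not overlap (log2 -1.78, SE 0.56, edgeR adjusted p = 0.169). Ephx1, an epoxide hydrolase, lay at 3.467 to 14.33 CPM (median 6.02) with p53 ko and 9.159 to 44.37 CPM (median 27.5) with p53 wt, with overlap (log2 -1.83, SE 0.37, edgeR adjusted p = 0.0722).

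The 3 with positive values were Dram1, a lysosomal membrane protein of autophagy, Fas, the death receptor, and Plk2, a polo-like kinase. Dram1 lay at 1.255 to 10.59 CPM with p53 ko and 0.8793 to 2.013 CPM with p53 wt (log2 1.70, SE 0.34, edgeR adjusted p = 0.0722). Its highest libraries, at 10.6 and 10.2 CPM, were the ICN p53-ko Lck pair, which also had the highest macrophage sums of 1540 and 1110 CPM. Fas lay at 1.647 to 15.43 CPM with p53 ko and 0.8016 to 4.891 CPM with p53 wt, with overlap. Plk2 lay at 0.6365 to 5.472 CPM with p53 ko and 0.4579 to 1.518 CPM with p53 wt, with overlap. Their changes were log2 1.77 (SE 0.49, edgeR adjusted p = 0.138) and 1.52 (SE 0.40, adjusted p = 0.121). Fas was highest in ICN p53-ko Miz1-wt replicate 1, which had a macrophage sum of 334 CPM. The Lck pair held 4.12 and 11.9 CPM of Fas and 2.39 and 5.47 CPM of Plk2. Libraries without ICN held 6.752 to 11.02 CPM of Fas and 1.977 to 4.827 CPM of Plk2. The part of macrophage RNA in these values was not tested. With both Lck groups left out 0 targets passed by edgeR, and 4 had an unadjusted p under 0.05. Of all 17259 genes tested there, 2 passed and 811 had such a p.

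**Figure D4:**
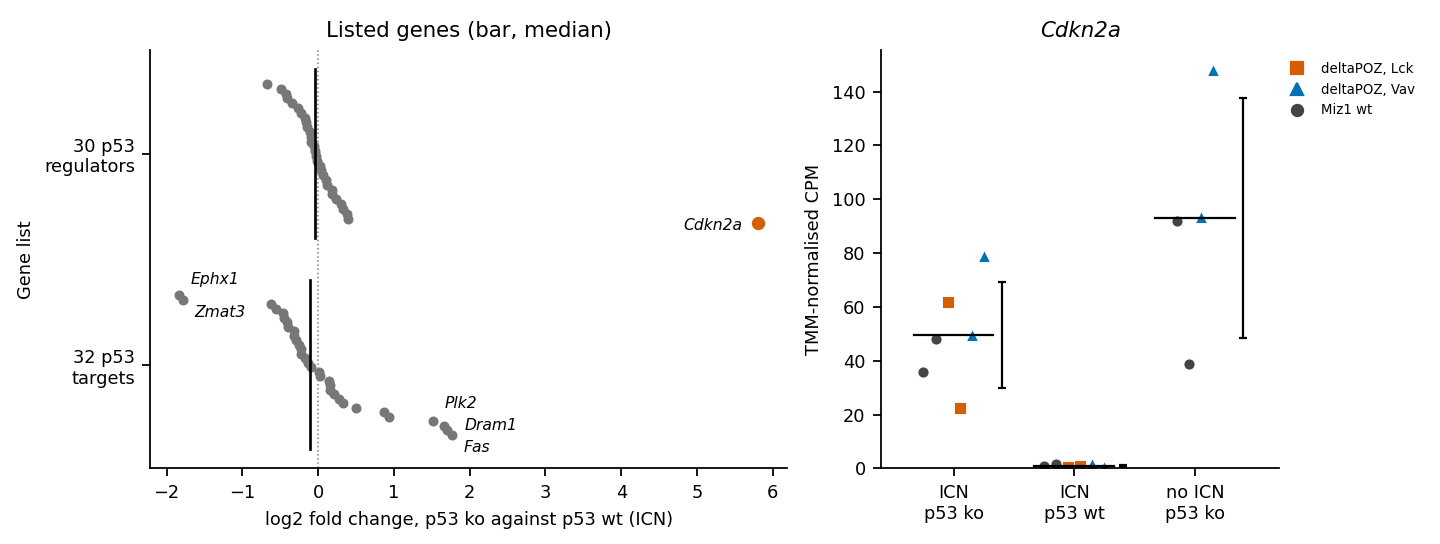
Left, log2 fold changes of p53 ko against p53 wt with ICN (x axis) for 30 p53 regulators and 32 p53 targets (y axis); each point is a gene, bars are medians, orange marks an edgeR adjusted p under 0.05 and names mark Cdkn2a and the 5 targets called by DESeq2. Right, Cdkn2a (y axis, TMM-normalised CPM) by ICN and p53 status, with points as mice, lines as means and whiskers as 1 SD; it lies at 22.58 CPM or more in p53-ko and at 1.528 CPM or less in p53-wt libraries.

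Between p53-ko leukaemias with and without ICN, 3 of 30 regulators rose and 3 fell, where 12.9% of all genes rose and 11.1% fell. Hipk2, a kinase that phosphorylates p53, lay at 20.8 and 54.4 CPM in Vav and 62.0 and 60.2 CPM in Miz1-wt ICN libraries, against 1.05 and 2.93 CPM in Vav and 2.05 and 17.2 CPM in Miz1-wt libraries without ICN. It rose by log2 3.44 (SE 0.60, edgeR adjusted p = 0.00247). The deacetylase Sirt1 rose by 0.86 (SE 0.20, adjusted p = 0.00941) and the damage kinase Chek2 by 0.84 (SE 0.20, adjusted p = 0.0123). The deacetylase Hdac1 fell by 1.0 (SE 0.20, adjusted p = 0.00575), the ubiquitin ligase Ube4b by 0.98 (SE 0.30, adjusted p = 0.0374) and the acetyltransferase Ep300 by 0.51 (SE 0.14, adjusted p = 0.0249). The list median was 0.02 and that of all genes -0.02.

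Of the 32 targets, 4 rose and 3 fell between ICN and no ICN, near the 12.9% and 11.1% of all genes, with a list median of 0.04. Pmaip1, which encodes the death protein Noxa, lay at 6.38 and 4.45 CPM in Vav and 24.9 and 10.9 CPM in Miz1-wt ICN libraries, against 0.549 and 1.61 CPM in Vav and 0.576 and 0.689 CPM in Miz1-wt libraries without ICN. No ICN library lay as low as any without ICN (log2 3.56, SE 0.45, edgeR adjusted p = 0.000393). Dram1 rose by 2.40 (SE 0.43, adjusted p = 0.00296) and Bbc3, the death protein Puma, by 1.60 (SE 0.42, adjusted p = 0.0192). The other gene that rose was Eda2r, below the level set for naming. DESeq2 also called Ddb2, a damage recognition gene named here after its values were seen (edgeR log2 -0.37, SE 0.14, adjusted p = 0.0711). The death receptor Tnfrsf10b fell by 1.94 (SE 0.49, adjusted p = 0.016), the ribonucleotide reductase subunit Rrm2b by 0.90 (SE 0.23, adjusted p = 0.0179) and the repair gene Xpc by 0.72 (SE 0.16, adjusted p = 0.00881). All these libraries are labelled p53 ko. Their markers of other cells also differ by ICN, with 9 of 9 erythroid, 9 of 9 neutrophil, 7 of 10 B cell and 3 of 10 macrophage markers called higher by edgeR. Of 9 endothelial and stromal markers 1 was called higher and 2 lower, and of 12 T cell markers 1 higher and 3 lower. Of 6 epithelial markers tested only Dsp ran higher, and 5 ran lower (1 called in each direction, list median log2 -1.43). Dsp lay at up to 1197 CPM in p53-ko libraries with ICN and up to 5.469 CPM in those without. The part of these cells was not tested. Between deltaPOZ and Miz1 wt, 0 regulators and 0 targets passed by edgeR or with DESeq2. By edgeR 3 regulators and 1 target had an unadjusted p under 0.05, as did 4.92% of all genes.

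Several of these ICN calls were lost when 1 library was left out. Without ICN p53-ko Vav replicate 1 the calls of Ube4b, Ep300, Tnfrsf10b, Bbc3 and Rrm2b were lost (adjusted p 0.065 to 0.134), and 4 targets passed. Without ICN p53-ko Miz1-wt replicate 1, or without the p53-ko Vav replicate 2 that had no ICN, those of Ube4b, Ep300, Tnfrsf10b and Bbc3 were lost (0.0528 to 0.158). Without the p53-ko Miz1-wt replicate 1 that had no ICN, those of Ube4b, Ep300, Tnfrsf10b and Chek2 were lost (0.0521 to 0.123), and without its replicate 2 that of Bbc3 (0.0691). Without ICN p53-ko Vav replicate 2 those of Ube4b, Tnfrsf10b and Chek2 were lost (0.054 to 0.0651), and that of Ube4b also without ICN p53-wt Lck replicate 1 (0.05 after rounding) or ICN p53-ko Lck replicate 2 (0.0504). A fit of the 10 p53-ko libraries alone lost Ube4b, Ep300, Bbc3 and Rrm2b (0.0512 to 0.0746), and a fit with no filter lost Ep300 (0.106). Hipk2, Sirt1, Hdac1, Pmaip1, Dram1 and Xpc passed under every setting run, with adjusted p-values of at most 0.0447.

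The members were last compared with all 14301 protein-coding genes tested for how alike their levels ran over the 16 libraries, as the mean absolute difference of centred log2 CPM. Nearest to Trp53, which spanned 3.95 log2 units, were Rpgrip1 at 0.481 and Dph5 at 0.53. Nearest to Mdm2, which spanned 0.66, were Psmd1 at 0.0784 and Snx3 at 0.0796. Nearest to Mdm4 were Med13 at 0.135 and Nemp2 at 0.142, to Ppm1d Cox11 at 0.101 and Eif4enif1 at 0.112, and to Wrap53 Trim41 at 0.0757 and Ctbp1 at 0.0816. A gene with a narrow range is near to many others on this measure.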

How the data were processed

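Poly(A) RNA was sequenced from 16 T-ALL samples, and the authors deposited raw counts per gene, 1 table per mouse. TopHat2 2.0.10, HTSeq, SAMtools and DESeq are named, without roles, per the submitters' processing notes, as are the builds GRCm38 and mm10. How strand was set in counting, and with which annotation release, is not given in the sources used here. Rows for 5 totals naming no gene were left out: alignments that were not unique took 45.81% to 63.74% of a library, reads outside genes 14.22% to 21.5% and ambiguous reads 0.138% to 0.331%. Names and positions came from GENCODE M21 on GRCm38, which held 40340 of 41214 identifiers.

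Counts were fitted with edgeR 4.0.16 in R 4.3.3 (TMM factors, 17470 genes after filterByExpr, 8 group means, quasi-likelihood F tests on 8 residual degrees of freedom), and p-values were adjusted by Benjamini-Hochberg over all genes at 0.05. DESeq2 1.42.0, other scalings, no filter, other models and leaving out each of 16 libraries were alternatives, and the fit was tested on simulated data. Ratios and low counts were tested by exact permutation of libraries within Miz1 states (Python 3.11.15), two-sided, with the floor at 3 counts over a group and 95% intervals that cover counting error only. All 7 members are named. Of the listed pathway genes those called by edgeR are named, up to 6 a list, with the largest change and a mean log2 CPM of at least 0, and for likeness the 2 nearest genes per member. The members and lists were chosen with earlier results of these data known. The labels name separate mice, replicate numbers only name a library, and the prior count for log2 CPM was 2.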

Additional observations from a re-analysis of the deposited data

How the results depend on the processing

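The members and lists were recomputed with each of 16 libraries left out and under 11 other settings. Of 1727 recomputed values 1525 were rated the same as in the main fit. For fold changes and ratios this means the same direction and side of the threshold. For counts of calls it means an equal or similar count. The Trp53 change in the p53 comparison ran from log2 -2.30 to -1.92 over left-out libraries, and from 0 to 1 members were called. Genes called ran from 2 (without ICN p53-wt Lck replicate 1) to 132 (without ICN Miz1-wt p53-ko replicate 2), and were 1588 without a filter, 1083 with DESeq2, 149 with only the ICN libraries and 2 with both Lck groups left out (0 members, Trp53 -2.16).

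Within Lck, Vav and Miz1-wt states, genes called were 1104, 335 and 601 without a filter and 600, 66 and 138 with DESeq2, each with 1 member (Trp53), 2 in Lck with RLE or upper quartile factors, and 0 to 4, 0 to 5 and 0 to 2 over left-out libraries. For the difference in p53 effect they were 378 without a filter and 30 with DESeq2. Between ICN and no ICN they were 2524 to 4643 over left-out libraries, and 0 to 1 members; of the 5 members that passed the filter 1, Ppm1d, passed with DESeq2, in the additive model and with all 3 ICN p53-ko groups, and Trp73 passed with DESeq2 and without a filter. For deltaPOZ they were 502, 134 (DESeq2) and 0 (additive model), and 0 to 20 over left-out libraries.

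Signs turned only among values that did not pass. For deltaPOZ these were Trp53 (0.01 in the additive model, -0.33 to 0.13 over left-out libraries), Mdm4 (0.01 with upper quartile factors, -0.13 to 0.10), Ppm1d (-0.01 to 0.15) and Wrap53 (-0.17 to 0.08). For p53 within states they were Mdm2 in Lck (-0.02 without a filter, -0.01 with upper quartile factors, -0.11 to 0.10 over left-out libraries), Mdm2 in Miz1 wt (-0.04 to 0.09), Mdm4 in Vav (-0.05 to 0.39) and Ppm1d in Lck (-0.16 to 0.20), and for the difference in p53 effect Mdm4 (-0.05 to 0.53) and Trp53 (-0.76 to 0.36). Mdm2 was at 0.00 in the main fit both for deltaPOZ and for the difference in p53 effect, so it had no sign to turn. It ran from -0.11 to 0.09 and from -0.05 to 0.09 over left-out libraries. The cause of these turns was not tested. No paired analysis was possible because replicate numbers only name libraries. With 2 mice per group and 1 to 45 counts for the paralogs over a group, small changes are out of reach.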
